A study of Mus musculus with 3 samples.

Results

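MHC class II molecules present peptides from ingested or endosomal proteins to CD4+ T cells, and in bone marrow they are known from dendritic cells, B cells and macrophages. An alpha and a beta chain are assembled with the invariant chain, which is encoded by Cd74 and fills the peptide groove until it is cut down in endosomes. The H2-DM heterodimer then removes the remaining fragment and lets peptide bind. Transcription of these genes is driven by the coactivator Ciita, which binds no DNA itself and acts on factors at a conserved group of promoter boxes. In human acute promyelocytic leukemia, blasts are known for lacking HLA-DR, the human class II molecule related to mouse I-E.

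The 7 genes described here were Cd74, the chains H2-Aa and H2-Ab1 of I-A, the beta chain H2-Eb1 of I-E, both chains of H2-DM (H2-DMa and H2-DMb1), and Ciita. They were taken by name as a presentation pathway, with earlier results of these data known, and all 7 were found among the 16742 genes listed in at least 1 of the 3 libraries. The study used mice with leukemia driven by TBLR1-RARα (TR), a fusion of the retinoic acid receptor alpha found in a variant form of acute promyelocytic leukemia. There was 1 RNA-seq library for each of 3 conditions, and each was a pool of 3 C57BL/6 mice whose age the labels give as 6 to 8 weeks. Control was made from lin- bone marrow cells of wild-type mice, which are the cells left once those with mature lineage markers have been removed. For TR1 and TR9, the cells were GFP+ bone marrow cells, and the labels give the genotype TBLR1-RARa. In both, TR and GFP came from 1 retroviral transcript introduced into lin- cells, and the cells had been passed through transplanted hosts to the third generation. Each of TR1 and TR9 therefore descends from 1 primary mouse. Control and TR cells also differed in how they were isolated, so isolation and genotype cannot be told apart, and with 1 library per condition no spread between samples was measured.

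Of the 7 class II genes, 3 passed the thresholds given below as lower than control in both leukemia libraries, against 8.39% of all genes. These were Cd74, H2-Ab1 and H2-DMa, and H2-Aa passed as lower in TR1 only. Counts and FPKM of every gene but H2-DMb1 were below control in both. H2-DMb1 went the other way and was higher in TR9. Ciita and H2-Eb1 were near the limit of detection in all 3 libraries and passed in neither comparison.

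Expected counts are the reads that RSEM assigned to a gene, and the control, TR1 and TR9 libraries held 5488778, 5571409 and 5129662 of them. At that depth 3 counts, the limit that a count of 0 allows, correspond to 0.547, 0.538 and 0.585 CPM, which is the count scaled to the library's total. Levels are in FPKM, which also scales by gene length, and a gene was called different between libraries at a false discovery rate of at most 0.001 by a conditional exact Poisson test with an FPKM ratio of at least 1 on the log2 scale in either direction. A call is therefore about a pair of libraries and not about the conditions they stand for. Brackets after a log2 ratio hold its 95% exact interval, which covers counting error only.

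The promoter sequences below show letters of such boxes in H2-Aa, H2-Eb1 and H2-DMb1. H2-Aa was called lower in TR1 only and H2-DMb1 higher in TR9 only. H2-Eb1 was called in neither, with too few counts to tell. The sequences are the 250 bases upstream of the start of the gene as given by RefSeq on GRCm38.p6. They are written in the direction of transcription, with letters of the boxes in capitals. In H2-Aa these are TGACGTCA (a CRE) and TGATTGG (the Y box), and in the other pair they are an X box and the Y box. The H2-Aa window is chr17:34287824-34288073 on the minus strand, that of H2-Eb1 is chr17:34305617-34305866 on the plus strand, and that of H2-DMb1 is chr17:34152941-34153190 on the plus strand.
H2-Aa: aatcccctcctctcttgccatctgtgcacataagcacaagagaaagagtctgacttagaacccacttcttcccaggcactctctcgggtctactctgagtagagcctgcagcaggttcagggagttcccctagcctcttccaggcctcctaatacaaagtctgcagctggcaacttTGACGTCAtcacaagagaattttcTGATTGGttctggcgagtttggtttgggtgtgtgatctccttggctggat
H2-Eb1: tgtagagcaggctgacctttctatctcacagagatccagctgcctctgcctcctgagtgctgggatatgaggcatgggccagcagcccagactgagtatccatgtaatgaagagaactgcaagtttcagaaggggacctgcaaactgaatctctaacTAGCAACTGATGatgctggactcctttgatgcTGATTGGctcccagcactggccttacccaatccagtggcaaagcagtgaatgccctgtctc
H2-DMb1: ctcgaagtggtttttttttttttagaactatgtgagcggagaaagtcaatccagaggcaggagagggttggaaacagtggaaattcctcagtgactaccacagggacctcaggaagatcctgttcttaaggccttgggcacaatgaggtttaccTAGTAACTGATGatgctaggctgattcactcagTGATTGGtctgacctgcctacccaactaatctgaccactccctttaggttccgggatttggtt
The Y box letters TGATTGG were searched on both strands, lay 50 to 44 bases upstream of the start in H2-Aa, 61 to 55 in H2-Eb1 and 63 to 57 in H2-DMb1, and occurred in 7.23% of all 32851 promoter windows. The X box was searched as TAG, any base, AAC, any base and GATG, which occurred in 15 windows (0.0457%), with TAGCAACTGATG at 93 to 82 bases upstream in H2-Eb1 and TAGTAACTGATG at 96 to 85 in H2-DMb1. The CRE letters TGACGTCA occurred in 1.55% of windows and lay 74 to 67 bases upstream in H2-Aa. Windows were found for 4 of the 7 genes and for 8 of the 12 class II genes examined in all, and 7 of those 8 genes held TGATTGG. H2-DMb1, which rose in TR9, and H2-Aa, which fell in TR1, thus both held it. The gene without a match was H2-DMa, which fell in both leukemias, and its 2 windows lie upstream of the starts of shorter transcripts in GENCODE M21, so nothing is read from that. The letters were chosen after these sequences had been seen, a match is not evidence of binding, and binding was not measured here.

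Cd74 fell in both leukemias, more so in the ratio for TR1 than in that for TR9. Its expected counts were 117 in control, 3 in TR1 and 15 in TR9, which is 17.1, 0.440 and 2.39 FPKM. The TR1 level was 38.9-fold lower than control (log2 ratio -5.28 [-7.58 to -3.70]) and the TR9 level 7.16-fold lower (-2.84 [-3.72 to -2.06]), and both were called. Between the leukemias, Cd74 was higher in TR9 by 2.44 on the log2 scale [0.62 to 4.87], which was not called at a false discovery rate of 0.001 and was called at 0.05. In bulk RNA, fewer cells that express a gene and less RNA per cell cannot be told apart, and this holds for every difference given here.

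The chains of I-A, the class II molecule that C57BL/6 mice carry on the cell surface, were detected in control, listed at 0 in TR1 and low in TR9. The beta chain H2-Ab1 had 48, 0 and 2 counts in control, TR1 and TR9, or 7.44 FPKM in control and 0.33 in TR9. Against control, its fall was at least 16.2-fold in TR1 and was 22.5-fold in TR9 (-4.49 [-7.58 to -2.56]), and both were called. The alpha chain H2-Aa had 19, 0 and 6 counts, or 3.25 FPKM in control and 1.10 in TR9. A fall of at least 6.43-fold in TR1 was called, while the TR9 ratio of -1.56 [-3.18 to -0.18] was called only at a false discovery rate of 0.05. The FPKM of H2-Ab1 was 2.29 times that of H2-Aa in control (1.32 to 4.12) and 0.3 times in TR9 (0.0296 to 1.68). No ratio could be formed in TR1, where both were at 0.

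H2-Eb1, the beta chain of I-E, had 6, 2 and 4 counts in control, TR1 and TR9, which is 0.66, 0.22 and 0.47 FPKM. Its partner H2-Ea, which C57BL/6 mice are known not to express as a working chain, was not listed in any library. The log2 ratio of H2-Eb1 against control was -1.58 [-4.93 to 0.90] in TR1 and -0.49 [-2.76 to 1.59] in TR9. Neither was called, and the intervals leave room for a large fall and for a rise.

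The chains of H2-DM, which work only as a pair, moved apart. H2-DMa had 212, 24 and 15 counts, or 23.4, 2.61 and 1.77 FPKM in control, TR1 and TR9. The fall was 8.98-fold in TR1 (-3.17 [-3.84 to -2.55]) and 13.2-fold in TR9 (-3.73 [-4.59 to -2.97]), and both were called. H2-DMb1 had expected counts of 90.35, 122.47 and 184.74, or 13.0, 17.3 and 28.3 FPKM. Its ratio was 0.41 [0.01 to 0.82] in TR1, which was not called, and 1.13 [0.76 to 1.51] in TR9, a 2.18-fold rise that was called. The ratio of H2-DMb1 to H2-DMa in FPKM was 0.554 in control (0.426 to 0.709), 6.62 in TR1 (4.23 to 10.7) and 16 in TR9 (9.47 to 29.2). The TR1 and TR9 intervals overlapped and were both clear of control.

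The counts of H2-DMb1 were not whole because reads that match more than 1 gene were divided. Its neighbor H2-DMb2 shares 369 of the 1355 stretches of 50 bases in the H2-DMb1 transcript (27.2%) in the GENCODE M21 annotation, and took 5.65, 7.53 and 4.26 counts in control, TR1 and TR9. Summing both genes removes the effect of that division. The sum was 17.5, 23.3 and 36.8 CPM, with a log2 ratio of 0.42 [0.02 to 0.81] in TR1 and 1.07 [0.71 to 1.44] in TR9. The rise in TR9 lay close to the threshold of 1 under each scaling, between 1.02 with TPM and 1.23 with TMM. It was not called by edgeR's exact test at an assumed coefficient of variation of 0.2.

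Ciita, the coactivator, had 10, 0 and 1 counts in control, TR1 and TR9, which is 0.35 FPKM in control and 0.04 in TR9. The difference was at least 3.38-fold in TR1, toward lower, and -3.13 [-8.57 to -0.32] on the log2 scale in TR9. Neither passed at a false discovery rate of 0.001, and both were called at 0.05. At these counts the size of the difference is poorly set.

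**Figure D1:**
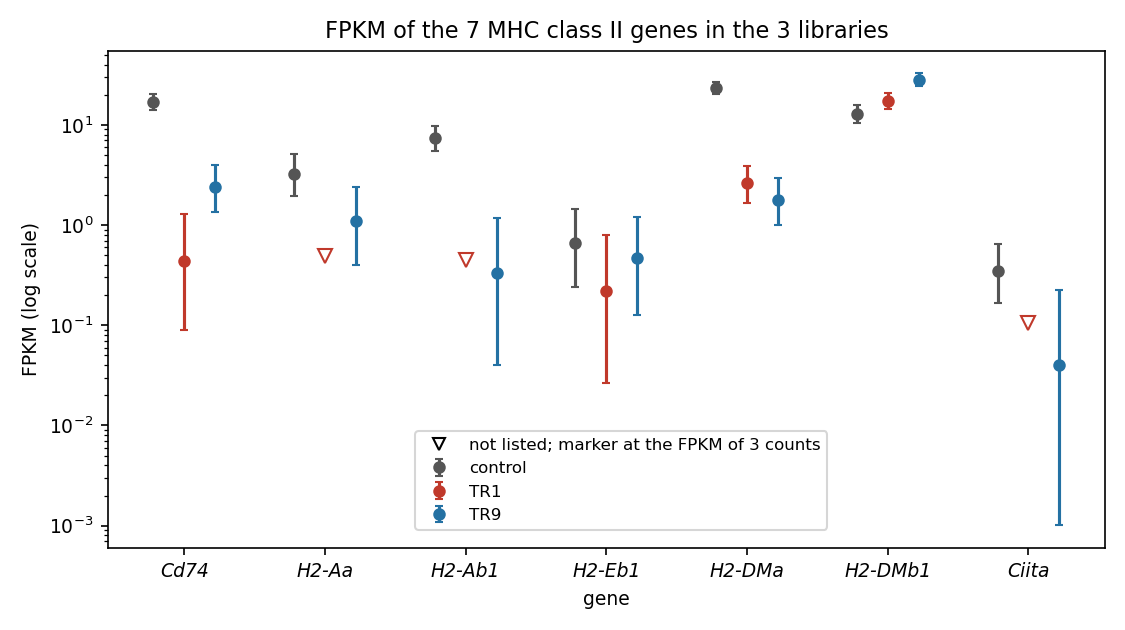
Level of each of the 7 class II genes in FPKM (log axis) in the control, TR1 and TR9 libraries, with 1 library per condition; bars are 95% exact counting intervals, and open symbols mark the limit of 3 counts for a gene at 0. Cd74, H2-Ab1 and H2-DMa lay below control in both leukemia libraries, and H2-DMb1 reached 28.3 FPKM in TR9 against 13.0 in control.

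**Figure D2:**
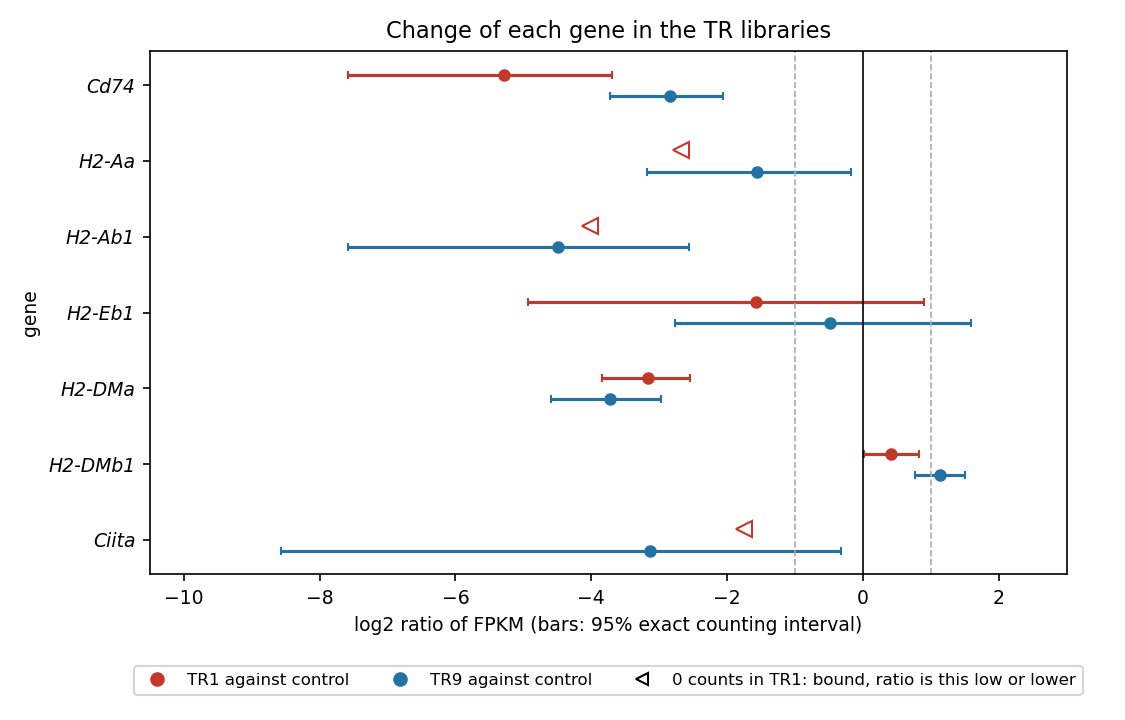
The log2 ratio of FPKM of each gene in TR1 and TR9 against control, with 95% exact counting intervals; triangles give the bound for genes at 0 counts in TR1, and dashed lines mark the threshold of 1. The intervals of H2-Eb1 span 0 in both leukemias, and H2-DMb1 in TR9 is the point to the right of the threshold.

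Against control, 4 of the 7 genes were lower in TR1 (Cd74, H2-Aa, H2-Ab1 and H2-DMa), where 13.0% of all 16282 genes tested were called lower. None of the 7 was called higher in TR1 (8.09% of all genes). Over all genes the direction of the TR1 calls depended on scaling, with 2120 lower and 1317 higher by FPKM and 1615 lower and 1674 higher under TMM, which took -0.24 in TR1 and -0.11 in TR9 as no change. Relative to that shift the calls of the 7 genes were the same. In TR9, 3 of the 7 were lower (Cd74, H2-Ab1 and H2-DMa) against 10.8% of 16303 genes tested, and 1 of the 7, H2-DMb1, was higher against 9.37%. Those same 3 genes were lower in both, against 8.39% of all 16742 genes, and none of the 7 was higher in both, against 5.67%. By the FPKM ratio alone, with no regard to counting error and with FPKM under 0.01 set to 0.01, 6 of the 7 were lower in TR1 by at least 1 on the log2 scale, against 26.4% of all genes, and none was higher by as much (17.2%). In TR9, 5 were lower (23.1%) and 1 was higher (19.6%). Control is shared by both comparisons, so they are not independent. Under edgeR's exact test with variation between mice assumed at a coefficient of 0.4, Cd74 and H2-Ab1 were called in TR1 and none of the 7 in TR9. The median log2 ratio of the 7 genes was -5.13 in TR1 and -2.84 in TR9 on the FPKM scale, and that of all genes was -0.29 and -0.12. With counts under 3 set to 3, which holds genes at 0 to their bound, the medians of the 7 were -2.68 and -1.64.

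None of the 7 genes was called between TR9 and TR1, where 2.31% of 15706 genes were called lower and 4.34% higher. By the ratio alone, 5 were higher in TR9, against 16.9% of all genes, and none lower (11.2%). Each of the 5 had 15 counts or fewer in either library. H2-Aa, H2-Ab1 and Ciita had 0 counts in TR1, so the size of their ratios was set by the FPKM floor. Under a floor of 3 counts, log2 ratios were 2.44 for Cd74, 1.12 for H2-Aa, 0.53 for H2-Eb1 and 0.12 for H2-Ab1 and Ciita. Only Cd74 and H2-Aa then stayed past the threshold. Low counts limited what could be seen for single genes, so Cd74, H2-Aa, H2-Ab1 and H2-Eb1 were also summed, a choice made after their values were known. Their counts were 190, 5 and 27.0 in control, TR1 and TR9, or 34.6, 0.897 and 5.26 CPM. In TR1 the sum was 38.6-fold lower (-5.27 [-6.91 to -4.02]) and in TR9 it was 6.58-fold lower (-2.72 [-3.36 to -2.13]). It was 5.87-fold higher in TR9 than in TR1 (2.55 [1.15 to 4.29]). H2-DMa did not share that order, with a TR9 against TR1 ratio of -0.56 [-1.60 to 0.43], and H2-DMb1 had a ratio of 0.71 [0.38 to 1.06].

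All 7 genes together made up 91.5 CPM in control (83.6 to 99.8), 27.2 in TR1 (23.0 to 31.8) and 44.4 in TR9 (38.9 to 50.6). Compared with control this was lower by 3.37-fold (TR1) and 2.06-fold (TR9), and the 3 intervals did not overlap. H2-DMb1 decided much of what remained. Without it the share was 75.1, 5.21 and 8.38 CPM, a fall of 14.4-fold in TR1 (-3.85 [-4.45 to -3.31]) and 8.95-fold in TR9 (-3.16 [-3.65 to -2.71]).

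The make-up of the class II transcripts changed with their amount. H2-DMb1 gave 18.0% of the counts of the 7 genes in control (14.7 to 21.6), 80.9% in TR1 (73.6 to 86.7) and 81.1% in TR9 (75.4 to 86.0). H2-DMa gave 42.2%, 15.8% and 6.59% in control, TR1 and TR9, and Cd74 gave 23.3%, 1.98% and 6.59%. The TR1 and TR9 intervals of the H2-DMb1 share overlapped, and both lay clear of control.

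**Figure D3:**
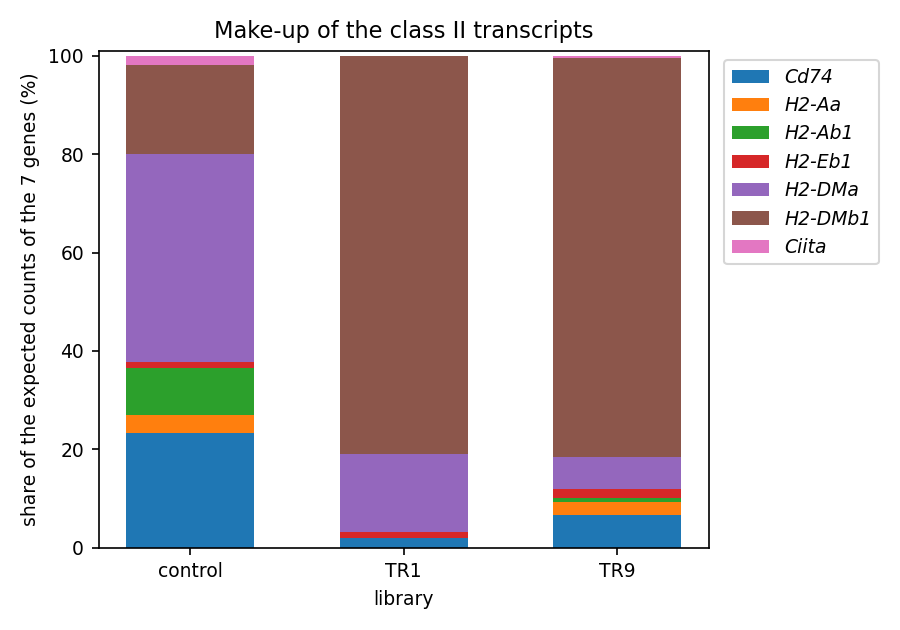
Share of each gene in the expected counts of the 7 class II genes (stacked bars, in percent, each summing to 100) in the control, TR1 and TR9 libraries. H2-DMb1 fills 18.0% of the control bar and about as much of the TR1 bar (80.9%) as of the TR9 bar (81.1%).

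Order within a library also changed. In control the levels ran from H2-DMa through Cd74, H2-DMb1, H2-Ab1, H2-Aa and H2-Eb1 down to Ciita, and the counting intervals of H2-DMa and Cd74, of Cd74 and H2-DMb1, and of H2-Eb1 and Ciita overlapped. In TR9, H2-DMb1 stood first and was followed by Cd74 and H2-DMa, whose intervals overlapped. In TR1, H2-DMb1 was followed by H2-DMa and Cd74, whose intervals did not. The intervals of all other neighbors in TR9, from H2-DMa through H2-Aa, H2-Eb1 and H2-Ab1 to Ciita, overlapped, as did those of Cd74 and H2-Eb1 in TR1. Among all listed genes, H2-DMa was above 75.2% of genes in control, 34.5% in TR1 and 29.2% in TR9. Cd74 was above 68.0%, 19.0% and 32.1%, and H2-DMb1 above 61.5%, 70.3% and 80.4%.

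The genes whose combined change was most like that of the 7 class II genes summed (log2 ratios of -1.75 and -1.04) were sought among 9337 genes with at least 50 control counts. Likeness was the distance between the pairs of log2 ratios, over the 3 libraries. The nearest were Uba6, with 310, 95 and 140 counts in control, TR1 and TR9, and Naa80, at distances of 0.024 and 0.045. Cep70, Kif24 and Nudt19 followed at 0.074, 0.084 and 0.099. In all, 281 of these genes lay within 0.5. H2-DMb1 gave most of the class II sum in TR1 and TR9, and without it the log2 ratios of the sum were -3.85 and -3.16. Likeness is thus to the sum and not to single class II genes.

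The other class II genes comprised H2-Oa and H2-Ob, the chains of H2-DO, which restrains H2-DM, with H2-DMb2, H2-Eb2 and H2-Ea. Of these 5 genes, 4 were listed in a library, 2 were lower in both leukemias (8.39% of all genes), and no gene was higher. Beside this and each list below, 13.0% of all genes were called lower and 8.09% higher in TR1. In TR9 the shares of all genes were 10.8% lower and 9.37% higher, and in both leukemias 8.39% lower and 5.67% higher. H2-Oa had 30, 3 and 2 counts in control, TR1 and TR9, with log2 ratios of -3.36 [-5.71 to -1.67] and -3.82 [-6.93 to -1.84]. H2-Ob had 58, 0 and 1 counts, with a fall of at least 19.6-fold in TR1 and a TR9 ratio of -5.82 [-11.15 to -3.28]. Both chains of H2-DO thus fell with H2-DMa, and H2-DMb2 and H2-Eb2 had under 8 counts in every library.

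On chromosome 17 the class II genes lie among genes with other functions, and Cd74 (chromosome 18) and Ciita (chromosome 16) lie elsewhere. In the order of the RefSeq table, H2-DMa, H2-DMb2 and H2-DMb1 are followed by Psmb9, Tap1, Psmb8 and Tap2 of the class I pathway and then by H2-Ob, H2-Ab1, H2-Aa and H2-Eb1. Brd2, a chromatin reader next to H2-DMa, had 2509, 2466 and 2565 counts with log2 ratios of -0.05 and 0.13, and was not called. Col11a2, which lies before H2-Oa and is not a class II gene, had 367, 79 and 30 counts. It was called lower in both leukemias (-2.24 and -3.52). H2-DMa, which fell in both, had Brd2 before it and H2-DMb2 and H2-DMb1 after it. Brd2 and H2-DMb1 were not called lower, and H2-DMb2 had too few counts in control for a lower call.

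**Figure D4:**
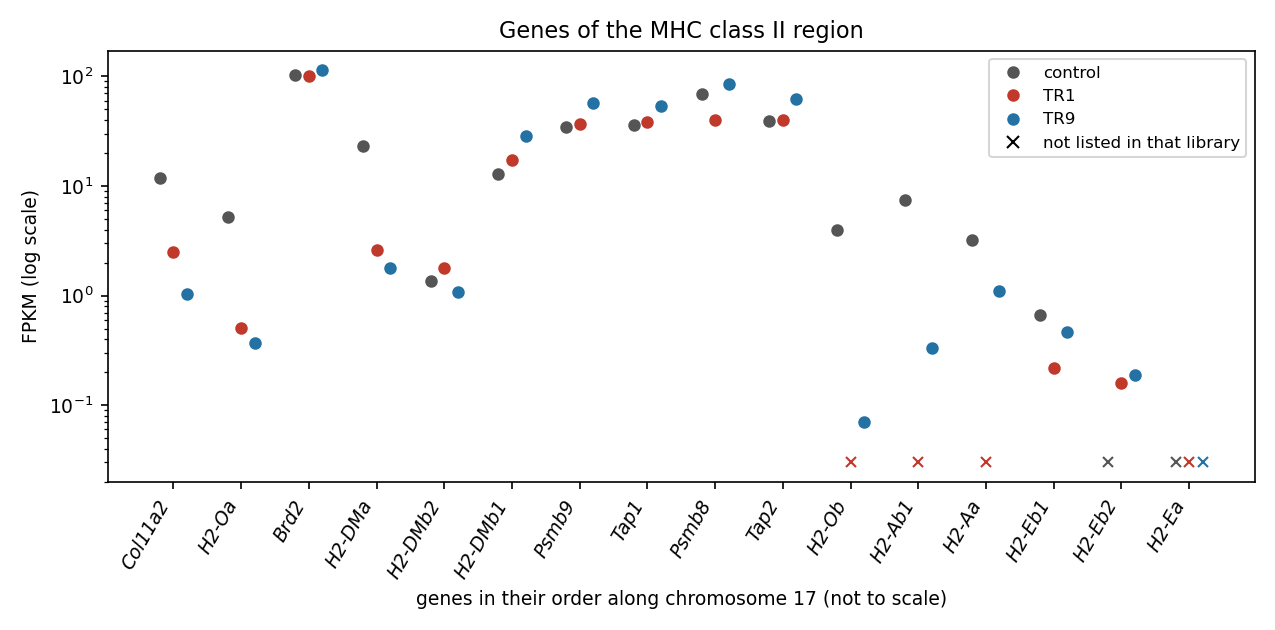
FPKM (log axis) in control, TR1 and TR9 of the genes of the class II region in their order along chromosome 17, not to scale; crosses mark genes not listed in that library. H2-Oa, H2-DMa, H2-Ob and H2-Ab1 were called lower in both leukemia libraries than in control, as was Col11a2, which lies beside H2-Oa and is not a class II gene. Brd2 sits at about the same level in all 3.

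Of 10 class II promoter factors, none was called in TR1 and 1 was called lower in TR9, with median log2 ratios of -0.31 and 0.28. The subunits of RFX, which binds the X box, were not called: Rfx5 had 217, 234 and 259 counts in control, TR1 and TR9, Rfxank had 203, 243 and 245, and Rfxap had 106, 150 and 187. The gene called was Nfya, a subunit of the factor at the Y box, with 873, 461 and 414 counts and a TR9 ratio of -1.0 [-1.17 to -0.83] at the threshold itself. In TR1 the Nfya ratio of -0.95 [-1.12 to -0.79] fell short of the threshold in size. The other subunits, Nfyb (-0.72 and -0.31 in TR1 and TR9) and Nfyc (-0.60 and -0.27), were also below control and not called. RNA for RFX and for the Y box factor was thus present in all libraries. Among the Y box subunits only Nfya in TR9 was called, and TMM took -0.11 there as no change. The median log2 ratio of all genes was itself below 0, at -0.29 in TR1 and -0.12 in TR9.

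Of 13 regulators of Ciita, 12 were listed (Pax5 was not), with 3 lower and 1 higher in TR1 and 2 lower and 4 higher in TR9. Irf4, a factor of B cells and some dendritic cells, had 16, 0 and 0 counts in control, TR1 and TR9, at least 5.41-fold and 4.98-fold lower. Jak2, a kinase of the interferon gamma receptor, was called lower in both, with log2 ratios of -1.05 [-1.19 to -0.91] and -1.10 [-1.25 to -0.96]. Both lay close to the threshold of 1, and TMM took -0.24 in TR1 and -0.11 in TR9 as no change. The Jak2 calls therefore depend on the scaling. The receptor chain Ifngr1 was higher in both, with 1186, 3359 and 5349 counts and ratios of 1.48 [1.38 to 1.57] and 2.27 [2.18 to 2.36]. Irf1, a factor that acts below that receptor, was higher in TR9 by 1.05. The list therefore held calls in both directions.

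Irf8 and Spi1, factors of dendritic cell and macrophage development, differed between the leukemias. Irf8 had 1059, 39 and 644 counts in control, TR1 and TR9. It was lower in TR1 (-4.79 [-5.29 to -4.33]) and was not called in TR9 (-0.62). TR9, with more Irf8 than TR1, also had more Cd74 and I-A counts, and their part in each other was not tested. Spi1 had 434, 733 and 1690 counts and was called higher in TR9 (2.06) but not in TR1 (0.73).

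Of 10 genes for endosomal processing, 3 were lower in TR1 (13.0% of all genes) and 3 in TR9 (10.8%). None was higher (8.09% and 9.37% of all genes), and the medians were -0.71 and -0.38. Ifi30, the thiol reductase GILT that unfolds antigens, had 276, 20 and 57 counts in control, TR1 and TR9, with ratios of -3.81 [-4.55 to -3.16] and -2.18 [-2.62 to -1.76]. Lgmn, an asparagine endopeptidase, had 81, 12 and 21 counts, with ratios of -2.78 [-3.79 to -1.90] and -1.85 [-2.62 to -1.14]. These 2 were lower in both leukemias. Ctss, the protease that trims the invariant chain, had 195, 83 and 106 counts and was lower in TR1 (-1.26) and not called in TR9 (-0.78). The calls here were shared with Cd74 in direction, but most genes of the list were not called.

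Of 7 genes for class II traffic and turnover, 3 were lower and 2 higher in TR1, and 1 was lower and 1 higher in TR9. The tetraspanin Cd82 was lower in both (-2.29 and -2.05) and the tetraspanin Cd63, of granules and multivesicular bodies, higher in both (2.28 and 2.38). Marchf1, a ligase that removes class II molecules from the surface, had 15, 50 and 22 counts and was higher in TR1 (1.71 [0.85 to 2.64]). Protein at the surface was not measured.

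The invariant chain is also a receptor for the cytokine MIF. Of 5 genes of that receptor system, 1 was higher in TR1, and 1 was lower and 1 higher in TR9. Mif itself had 637, 660 and 489 counts in control, TR1 and TR9 and was not called, while Cd74 fell in both. Cd44, its signaling partner, had 1389, 715 and 548 counts and was called lower in TR9 (-1.25). The Cd44 ratio in TR1, -0.98 [-1.11 to -0.85], fell just short of the threshold in size. Cxcr4 was higher in TR9 (1.81) and Cxcr2 in TR1 (1.33).

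Of 7 costimulatory genes, 2 were lower and 1 higher in TR1, and 1 was higher in TR9. Cd86 had 19, 0 and 2 counts, which made it lower in TR1 by at least 6.43-fold, while the TR9 ratio of -3.18 [-6.33 to -1.13] was not called. Icosl was higher in both (1.48 and 1.89). The inhibitory ligand Cd274 (PD-L1) had 80.3, 8.22 and 140 counts and was lower in TR1 (-3.31), and its ratio in TR9 was 0.90 and not called.

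Class I presentation serves CD8+ T cells, and some of its genes lie in the class II region. Of 9 genes of that pathway, none was lower in either leukemia, 2 were higher in TR1 (8.09% of all genes) and 3 in TR9 (9.37%), the others were not called, and the medians were 0.52 and 0.74. H2-D1 was higher in both (1.18 and 1.70), though its reads can be shared with other class I genes. Nlrc5, the class I relative of Ciita, had 216, 431 and 539 counts and was higher in TR9 (1.42), and its TR1 ratio was 0.97 and not called.

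Markers of the cells known to carry class II molecules were compared beside these genes. Of 9 conventional dendritic cell markers, 8 were listed and 3 were lower in both (8.39% of all genes). Zbtb46 had 87, 0 and 0 counts in control, TR1 and TR9, Clec9a had 90, 5 and 3, and Cd209a had 13, 0 and 0. The 8 summed to 105, 150 and 29.8 CPM, a sum that Flt3, also a progenitor gene, decided with 327, 792 and 126 counts. Itgax (26.5, 20.9 and 13.0 counts), Xcr1 (10.7, 7.67 and 7.44) and Clec10a (18.8, 9.41 and 3.54) were called in neither leukemia. Of the markers, 3 of 8 were thus lower in both, and Flt3 was called higher in TR1 (1.25) and lower in TR9 (-1.28).

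Of 12 monocyte and macrophage markers, 8 were lower in both leukemias (8.39% of all genes) and 2 were higher in both (5.67%). The lower ones included C1qa (104, 4 and 2 counts), C1qb (86, 5 and 8) and C1qc (86, 0 and 5). Cd68 and Vcam1 (471, 3139 and 5110 counts) were the 2 higher ones. Adgre1, with 46, 218 and 71 counts, was called higher in TR1 (2.22) and not called in TR9. The list summed to 357, 803 and 1120 CPM. The sum thus ran against most of its genes.

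Of 9 B cell markers, 8 were listed. Cd79b had 69, 0 and 0 counts and Blnk 17, 0 and 1, and both were lower in TR1 and TR9. Cd79a had 8, 0 and 0 counts and Ms4a1 had 3, 0 and 0. Igll1, a surrogate light chain of early B lineage cells, was higher in both with 2, 63 and 847 counts. Vpreb1, its partner in the surrogate light chain, had 1, 14 and 20 counts and was called higher in TR9 (4.44 [1.79 to 9.81]). The list summed to 18.9, 13.8 and 169 CPM, mostly from Cd79b in control and from Igll1 in TR1 and TR9. Of the 8, 6 were at 0 in TR1 and 4 in TR9.

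The 6 plasmacytoid dendritic cell markers summed to 70.9, 27.3 and 57.1 CPM, mostly from the widely expressed Tcf4 (350, 135 and 285 counts), with 1 lower in TR1 and none called in TR9, and Siglech had 7, 0 and 2 counts. The 8 T and NK cell markers summed to 81.6, 156 and 125, nearly all from Nkg7 (412, 857 and 628 counts), which was called higher in TR1, and Cd3e had 2, 0 and 1 counts. The 8 stroma and endothelium markers summed to 1340, 86.4 and 202, with 5 lower in both, although the control label names lin- cells only. Col1a1 gave most of the control sum (6904, 71 and 31 counts) and Pdgfrb, called higher in TR9 (2.80), most of the TR9 sum (146, 273 and 950), and Lepr was called higher in TR1 (1.14). The 7 erythroid and megakaryocyte markers summed to 2480, 10.2 and 7.21, all lower in both. The 8 stem and progenitor markers summed to 688, 337 and 460, with 2 lower and 1 higher in both, and Kit had 2115, 853 and 1684 counts. Granulocyte precursor markers, 8 in number, rose from 7710 CPM to 35500 in TR1, with all 8 called, and to 29600 in TR9, with 7 called. The part that any of these cell types had in the fall of the class II genes was not tested.

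**Figure D5:**
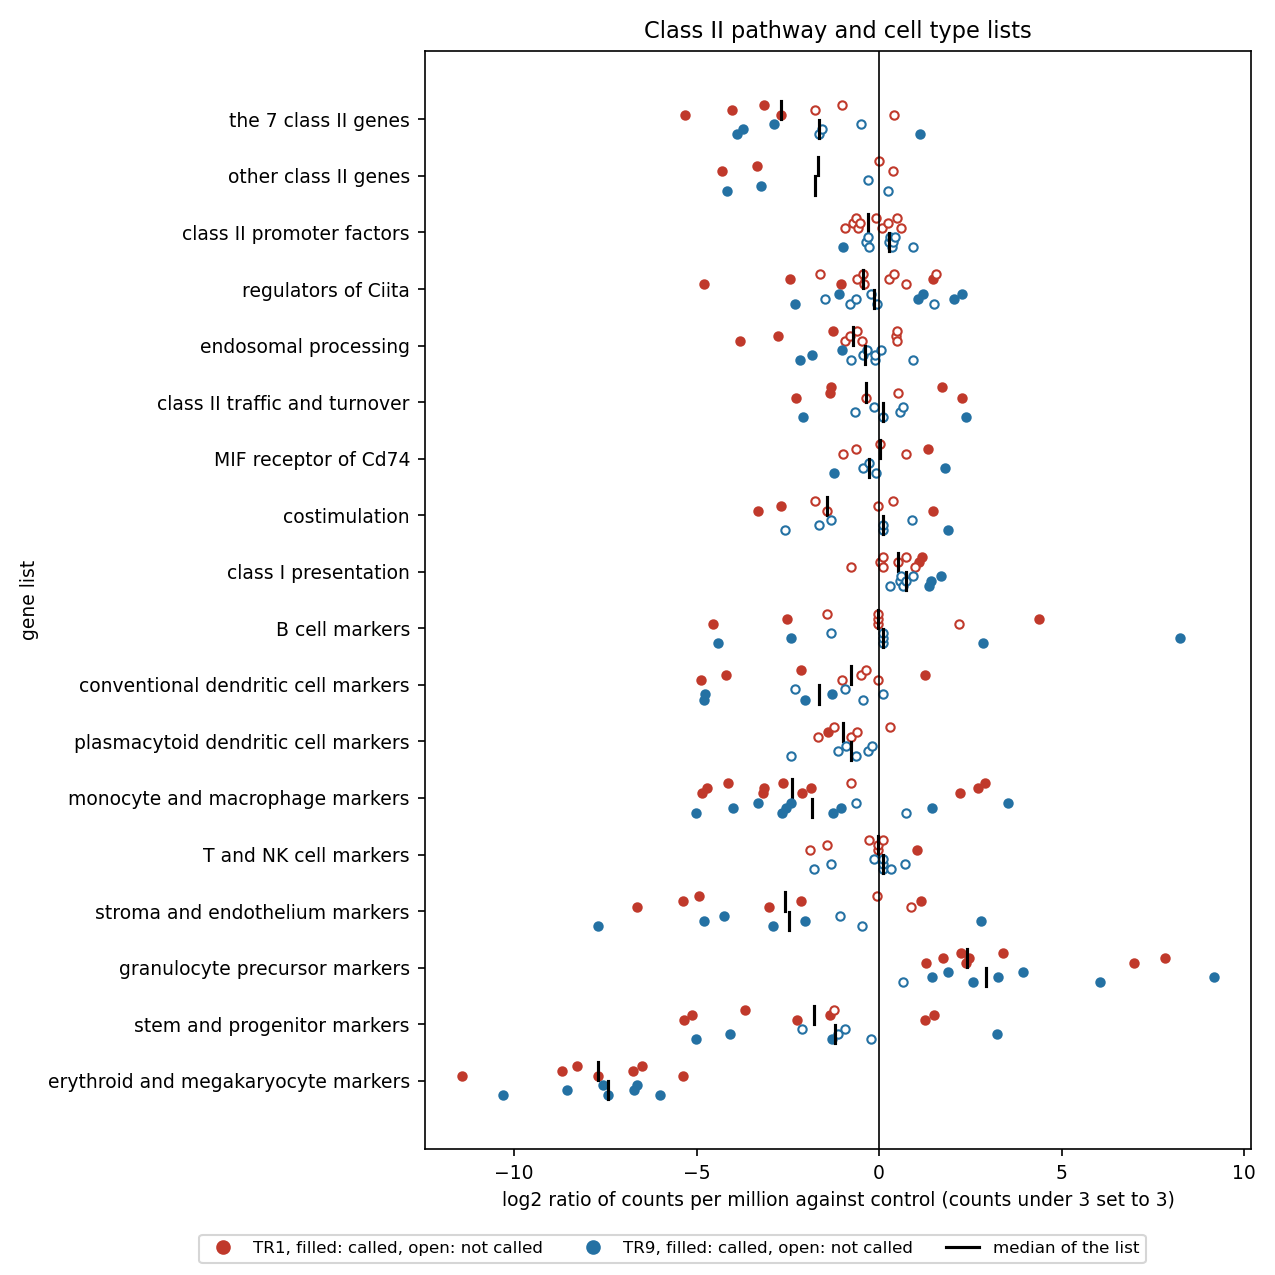
The log2 ratio against control of CPM, with counts under 3 set to 3, for each gene of the class II, pathway and cell type lists in TR1 and TR9; filled points were called, open points were not, and black ticks are list medians. The 7 class II genes have medians of -2.68 and -1.64, while those of the promoter factors are near 0 and all 7 erythroid and megakaryocyte markers were called lower in both.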

How the data were processed

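RNA of 3 cell pools, 1 per condition, was sequenced by Illumina. The authors filtered reads, used BWA and Bowtie for mapping and RSEM for quantification, and the processing notes name the build mm9. The software versions and annotation are not given in the sources used here. The authors deposited an expected count per gene, not normalized, and FPKM, scaled by gene length and library total. Gene length, also deposited, was not used in tests. Per-sample columns left unused numbered 0.

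NCBI Gene IDs were matched to symbols in the RefSeq table of GRCm38.p6 (16698 of 16742 matched, 44 did not), and a gene missing from a library was taken as 0. Expected counts were rounded to whole numbers and compared between libraries by the conditional exact Poisson test (scipy 1.17.1), adjusted by Benjamini-Hochberg over all genes listed in either library. FPKM under 0.01 were set to 0.01 for the log2 ratio. Folds against 0 counts used 3 counts and are lower bounds. Intervals are 95% exact (Clopper-Pearson) and, without molecular identifiers, cover counting error only.

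The 7 genes and all lists were chosen with earlier results of these data known. All 7 were named. Genes of the lists were named with priority for those called in the same direction in TR1 and TR9 or with 3 counts or fewer in a library, and beyond the lists the 5 nearest genes by likeness of CPM ratios. Some genes of the lists are not reported here. Brd2 and Col11a2 were named for their places beside H2-DMa and H2-Oa after their values were seen.

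Alternatives were an FPKM floor of 0.001, a pseudocount of 1 FPKM, a CPM ratio with a floor of 3 counts, TMM, median of ratios and upper quartile scaling (edgeR 4.0.16 in R 4.3.3), minima of 1 FPKM or 10 counts, a false discovery rate of 0.05, a log2 ratio of 2, the edgeR exact test at a biological coefficient of variation assumed to be 0.2 or 0.4, and library totals that leave out the 100 most abundant genes. Chosen after seeing the data were TPM scaling and the sum of H2-DMb1 and H2-DMb2. The Poisson step was tested on simulated data. Those data held counting error only, and changes were given only to genes above a minimum mean count. That test therefore says nothing of spread between mice or of genes near the limit of detection. Other software was matplotlib 3.10.9, numpy 2.4.6, pandas 2.3.3 and Python 3.11.15.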

Additional observations from a re-analysis of the deposited data

Results flagged for a closer look

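None of the 7 class II genes was called between TR9 and TR1, and 8 genes of the pathway lists were. Of all genes, 2.31% were called lower in TR9 and 4.34% higher. Each difference was tested between those 2 libraries only, by the conditional exact Poisson test. Irf8 was higher in TR9 than in TR1 by 4.17 on the log2 scale [3.70 to 4.67], and Spi1 by 1.33 [1.20 to 1.45]. Cd274 was higher by 4.21 [3.23 to 5.49], so that it stood below control in TR1 alone. Ifi30, lower than control in both, was higher in TR9 by 1.63 [0.88 to 2.45]. Cd9 was higher by 1.16 [0.95 to 1.37], Cxcr4 by 1.07 [0.96 to 1.18] and Psmb8, a subunit of the immunoproteasome, by 1.09 [0.87 to 1.30]. Cxcr2 was lower in TR9 than in TR1, at -1.79 [-2.07 to -1.50].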

How the results depend on the processing

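Under the scaling, floor and minimum alternatives, the counts of called class II genes stayed at 4 lower in TR1 and at 3 lower and 1 higher in TR9, and no value changed direction. With a biological coefficient of variation assumed to be 0.4, a stand-in for spread between mice that these libraries cannot give, 2 of the 7 genes were lower in TR1 and 0 were lower or higher in TR9. At 0.2, H2-DMb1 was no longer called, which left 0 higher in TR9, as did a log2 ratio of 2. At a false discovery rate of 0.05, 5 were lower in TR9 and 1, Cd74, was higher in TR9 than in TR1. Among all genes tested, the log2 ratio of 2 left 1133 lower and 685 higher in TR1, 928 and 737 in TR9, and 135 and 283 between TR9 and TR1. The assumed variation of 0.2 left 992 and 657, 830 and 717, and 94 and 188 in the same order. That of 0.4 left 347 and 170, 287 and 161, and 2 and 13. With the 100 most abundant genes left out of the totals, the 7 genes made up 109, 35.3 and 55.1 CPM in control, TR1 and TR9. Of the results for single genes over all alternatives, 269 kept their state, 4 calls were gained and 8 were lost. Those that kept their state include genes called neither in the main setting nor in the alternative. No paired analysis was possible because each group has 1 library, and for the same reason no replicate could be left out. Depth limits what is said of Ciita, H2-Eb1 and H2-Aa, which had 19 counts or fewer in every library.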
